A study of Mus musculus with 4 samples.

Results

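The genes described here are the mouse translation initiation factors (Eif1 to Eif6) and elongation factors (Eef1 and Eef2). They were chosen by name: of 23700 rows in each expression table, 66 carried a symbol that begins with Eif1 to Eif6, Eef1 or Eef2. From these, 5 rows were left out, namely the Eif2ak kinases and the Y-linked Eif2s3y, which leaves 61 genes. Of the 61, 4 are Argonautes that the tables still list under their old Eif2c symbols (Eif2c1 to Eif2c4, now Ago1 to Ago4). Argonautes bind small RNAs and are no translation factors, so they are given separately.

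Translation begins when a small ribosomal subunit, carrying the initiator tRNA with eIF2 and held together by the large eIF3 complex, is brought to the capped end of an mRNA by eIF4E, eIF4G and the helicase eIF4A. The subunit then scans to the start codon, where eIF1, eIF1A and eIF5 control start site choice, and eIF2B later recharges eIF2 with GTP. During elongation eEF1A delivers the aminoacyl-tRNAs, the eEF1B subunits recharge eEF1A, and eEF2 moves the ribosome along. In T cells, activation through the antigen receptor and mTOR raises protein synthesis, and the 4E-BP proteins, which mTOR switches off, hold eIF4E back.

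The RNA came from CD4 helper T cells of the spleens of C57BL/6 mice aged 43 weeks. The libraries of 1 group (KO 1 and KO 2) are labelled as having RIPK1, a kinase and scaffold of TNF receptor signalling, deleted in T cells, and the libraries set against them (WT 1 and WT 2) are labelled wild type. Every library title, in both groups, also ends in Ctrl. Neither the Cre driver nor the number of mice behind each library is named in the labels, and the p-values measure only the spread between libraries. Each library gave 1 FPKM value per row (fragments divided by transcript length and by the library total), at an estimated 17550000 and 19100000 fragments in the KO libraries and 21350000 and 22050000 in the WT libraries.

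Ripk1 itself had 10.4 and 9.54 FPKM in the libraries labelled KO, against 5.61 and 5.6 FPKM in those labelled WT, which goes against the label if the deletion removes its mRNA (log2 change 0.73, adjusted p = 0.0262, limma). After the trimmed-mean scaling described below, its log2 change was 0.33 and no longer passed (adjusted p = 0.192, limma). The part of the gene that was deleted is not given in the labels, so "higher" and "lower" refer throughout to how the libraries are labelled. The tables showed T cells in all 4 libraries, with Cd4 at 211 and 185 FPKM in the KO libraries and 86.3 and 87.3 FPKM in the WT libraries. Of 5 T cell genes, 4 were above in both KO libraries, as were 58.5% of all genes. Cd3g overlapped, with 356 and 332 FPKM in the KO libraries and 262 and 362 FPKM in the WT libraries. The CD8 T cell gene Cd8b1 also overlapped, with 10.3 and 11.3 FPKM in the KO libraries and 10.9 and 10.5 FPKM in the WT libraries. Red cell genes moved with the groups: of 8 erythroid rows 4 could be tested, and all 4 were higher as deposited but 0 after trimmed-mean scaling. The 8 rows summed to 390.1 and 318 FPKM in the KO libraries against 6.33 and 99.1 FPKM in the WT libraries, and Alas2 and Klf1 were listed at 0 in WT 1. The B cell markers summed to 9.32 and 9.16 FPKM in the KO libraries and 4.78 and 4.82 FPKM in the WT libraries, and the myeloid markers to 4.21 and 6.35 against 0.992 and 3.15 FPKM. The part of these cells in the results below was not tested. In bulk RNA, fewer cells of a type and less RNA per cell cannot be told apart.

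Before any scaling of the libraries, the median gene stood 0.38 higher in the KO libraries on the log2 scale. Ribosomal protein mRNAs held 22.4% and 22.7% of the summed FPKM in the KO libraries, against 36.8% and 39% in the WT libraries. FPKM divides by a library total, so a change in such an abundant group can move the values of other genes. The summed FPKM was not level, at 332510 and 324820 in the KO libraries and 328767 and 409748 in the WT libraries. Scaling to a common sum left the median gene 0.51 higher in the KO libraries, and the cause of the shift was not tested. The calls are therefore counted in the deposited values and again with trimmed-mean scaling, which brought the shift of the median gene to 0.01. All log2 changes are KO minus WT on the log2(FPKM + 1) scale.

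As deposited, 11 of 58 tested members were higher in the KO libraries and 0 were lower (limma, adjusted p under 0.05). That is 19.0% of the members, where 25.6% of all 11074 genes tested were higher and 1.0% were lower. At an unadjusted p under 0.05, 17 members were higher and 2 lower (29.3% and 3.45%), beside 39.5% and 2.85% of all genes. With trimmed-mean scaling 3 members were higher, 5.17% of the tested members against a background of 4.52%, and 8 were lower, 13.8% against 3.75%. The members' median log2 change was 0.23, below the 0.38 of all genes, and 22 members lay above the median gene while 36 lay below it. The 11 members called as deposited are Eif4g1, Eif4g3, Eif4h, Eif4ebp1, Eif4ebp2, Eif4enif1, Eif3b, Eif3c, Eif3l, Eif2c1 and Eif2c2. The 8 lower ones after scaling are Eef1b2, Eef1d, Eef1g, Eef1e1, Eif3e, Eif3i, Eif3k and Eif2s2.

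Both KO libraries lay above both WT libraries for 30 of the 58 members (51.7%, against 58.5% of all genes), and both lay below for 9 (15.5%, against 12.1%). As deposited 44 members had a log2 change above 0, and 25 of these turned below 0 after trimmed-mean scaling. The 11 called members were above 0 and 13 others below 0 in all 4 of the scalings compared, which were the deposited values, trimmed-mean scaling, quantile normalization and removal of the length trend. Scaling to a common summed FPKM is not among these 4. Under it Eif1 and Eif2b4, which are among the 13, were above 0 (log2 change 0.095 and 0.12). The calls rest on the 4 libraries together: without WT 1, 0 members were called in either direction by limma, with 12 higher and 9 lower at an unadjusted p under 0.05 (20.7% and 15.5%, beside 28.1% and 3.12% of all genes). Over all genes 9 (0.0825%) were then called higher and 0 lower. Without KO 1, 5 members were called higher and 0 lower, beside 15.4% and 0.671% of all genes. Without KO 2 it was 6 and 0, beside 18.9% and 1.18%, and without WT 2 it was 9 and 0, beside 20.1% and 0.963%.

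**Figure D1:**
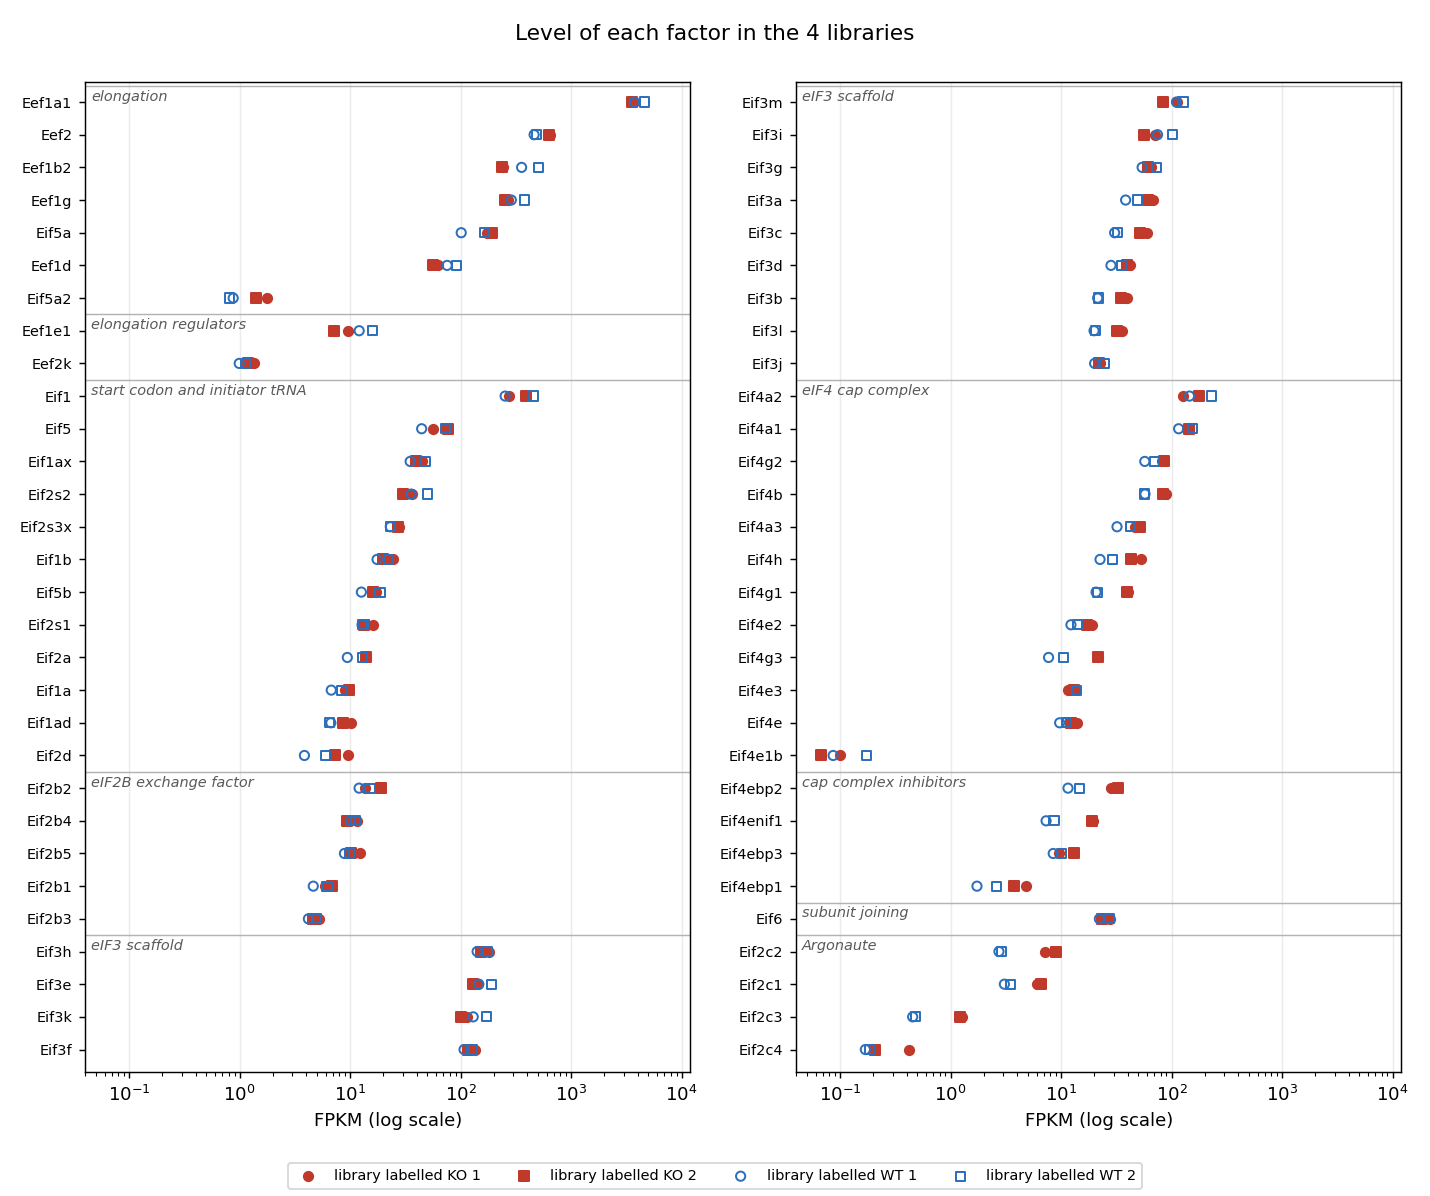
FPKM (horizontal log axis) of the 60 members that were above 0 in any library, grouped by role; filled red marks are the 2 libraries labelled KO and open blue marks the 2 labelled WT. The levels run from under 1 FPKM for Eif2c4 and Eif4e1b to at least 3556 FPKM for Eef1a1, and the red marks stand clear to the right of the blue for Eif4g3, Eif4enif1, Eif4ebp2 and Eif2c2.

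The promoters of 47 of the 61 members were found in the RefSeq table (250 bases before to 50 after each gene start). The ETS-type motif CCGGAAG, read on both strands, stood in 17 of the 47 (36.2%), against 22.2% of the promoters of all tested genes and 9.93% of all 27025 promoters. It was in 4 of 9 promoters of members called higher as deposited (Eif3c, Eif3l, Eif4ebp2 and Eif4enif1). The E-box CACGTG, which MYC and its relatives can bind, stood in 12 of the 47 (25.5%), against 11.9% of the promoters of tested genes and 8.09% of all, and among the 9 called members it was in Eif4g1 and Eif4h. The 120 bases before the gene starts of 4 called members are shown with these motifs in capitals, as examples of both kinds (RefSeq, GRCm38.p6, each read 5′ to 3′ on the gene's strand). They lie at chr7:126566367-126566486 on the minus strand for Eif3c, at chr15:79075103-79075222 on the plus strand for Eif3l, at chr16:20672607-20672726 on the plus strand for Eif4g1 and at chr5:134639410-134639529 on the minus strand for Eif4h.
Eif3c: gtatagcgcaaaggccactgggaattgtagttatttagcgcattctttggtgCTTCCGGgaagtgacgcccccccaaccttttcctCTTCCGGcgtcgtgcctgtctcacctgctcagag
Eif3l: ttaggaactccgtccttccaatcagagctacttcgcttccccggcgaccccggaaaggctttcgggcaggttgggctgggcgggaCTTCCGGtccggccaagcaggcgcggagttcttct
Eif4g1: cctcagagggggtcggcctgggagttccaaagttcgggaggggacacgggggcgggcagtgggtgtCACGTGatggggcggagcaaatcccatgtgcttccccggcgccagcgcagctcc
Eif4h: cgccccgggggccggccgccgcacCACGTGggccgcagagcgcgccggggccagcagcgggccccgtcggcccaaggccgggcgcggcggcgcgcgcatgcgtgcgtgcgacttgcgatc
On the strand shown, the ETS-type motif reads CTTCCGG in these promoters. A match is a run of letters and says nothing of whether a factor binds there.

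Of the 11 tested genes grouped here as the eIF4 cap complex, 3 were higher as deposited (27.3%, near the 25.6% of all genes). Eif4a3 and Eif4e2, whose other roles are given below, are counted in this group. Eif4g3, a homologue of the scaffold that joins the cap to eIF3, had 21.4 and 21.4 FPKM in the KO libraries, against 7.71 and 10.5 FPKM in the WT libraries. The groups stood apart, and the gene was 2.35-fold higher (log2 change 1.16 ± 0.21 SE, adjusted p = 0.0159, limma). It was also higher after trimmed-mean scaling (log2 change 0.74, adjusted p = 0.0484, limma). Eif4g1, the main eIF4G scaffold, had 40.6 and 39.2 FPKM in the KO libraries and 20.8 and 21.5 FPKM in the WT libraries, with very close values within each group. Its 1.89-fold rise (adjusted p = 0.0217, limma) no longer passed the test after trimmed-mean scaling (log2 change 0.45, adjusted p = 0.0942). Eif4h, an RNA-binding helper of the eIF4A helicase, had 52.4 and 42.5 FPKM in the KO libraries against 22.5 and 29.3 FPKM in the WT libraries. It rose 1.83-fold as deposited (adjusted p = 0.0378, limma) and had an adjusted p of 0.139 after trimmed-mean scaling. Of the 4 fits that left out a library, Eif4g1 and Eif4h passed in 1, that without WT 2.

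The other 8 tested cap complex genes did not pass the test in either scaling. Eif4e, the cap-binding protein itself, had 14.0 and 12.4 FPKM in the KO libraries and 9.72 and 11.2 FPKM in the WT libraries (log2 change 0.31, adjusted p = 0.241, limma). Its relative Eif4e2, a cap-binding protein linked to repression of mRNAs, had 19.1 and 17.2 FPKM in the KO libraries and 12.3 and 14.0 FPKM in the WT libraries (adjusted p = 0.125, limma). For both genes the groups did not overlap, but the difference was below or near that of the median gene. Eif4b, which like Eif4h aids the helicase, had 89.8 and 84.3 FPKM in the KO libraries and 57.5 and 57.0 FPKM in the WT libraries (log2 change 0.60, adjusted p = 0.0723, limma). Eif4g2, an eIF4G relative that cannot bind eIF4E, had 82.5 and 86.0 FPKM in the KO libraries and 57.3 and 69.6 FPKM in the WT libraries (log2 change 0.41, adjusted p = 0.194, limma). The groups stood apart in both genes, and Eif4g2 lay beside the median gene. Eif4a3, a helicase of the exon junction complex on spliced mRNAs, had 47.2 and 52.2 FPKM in the KO libraries and 32.1 and 42.3 FPKM in the WT libraries (log2 change 0.42, adjusted p = 0.198, limma). Eif4e3, another cap-binding protein, was the one tested member of the complex with both KO libraries lower, at 11.7 and 13.1 FPKM against 13.8 and 13.9 FPKM in the WT libraries (adjusted p = 0.557, limma). The most abundant members of the complex, the helicases Eif4a1 and Eif4a2, overlapped between the groups. Eif4a1 had 137 and 144 FPKM in the KO libraries and 116 and 154 FPKM in the WT libraries, and Eif4a2 had 128 and 176 against 145 and 228 FPKM. These paralogs are alike in sequence and Eef1a1 has processed copies in the genome, and the labels and file headers do not say how shared reads were assigned. Eif4e1b, a cap-binding protein of oocytes, was at most 0.173 FPKM in any library and was not tested.

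The genes whose products restrain the cap complex had the highest median change of any role, 0.95 over 4 genes on the log2 scale. With the length trend removed that median was 0.51, and 0 of the 4 were called, beside 1.94% of all genes called higher. After quantile normalization 0 of the 4 were called either, beside 1.62% of all genes higher. Eif4enif1, which carries eIF4E into the nucleus and into P-bodies, had 19.5 and 18.9 FPKM in the KO libraries, against 7.32 and 8.63 FPKM in the WT libraries. That was 2.41-fold higher (log2 change 1.17 ± 0.19 SE, adjusted p = 0.0139, limma), and it passed after trimmed-mean scaling too (log2 change 0.76, adjusted p = 0.0417). Eif4ebp2, the 4E-BP with the highest level here, had 28.3 and 32.5 FPKM in the KO libraries and 11.6 and 14.7 FPKM in the WT libraries. It was 2.31-fold higher as deposited (log2 change 1.16 ± 0.21 SE, adjusted p = 0.0164, limma) and missed the threshold after trimmed-mean scaling by little (log2 change 0.73, adjusted p = 0.0515). Eif4ebp1 was far scarcer, with 4.81 and 3.74 FPKM in the KO libraries against 1.74 and 2.61 FPKM in the WT libraries (1.97-fold, adjusted p = 0.0455, limma). After trimmed-mean scaling its adjusted p was 0.192, and of the fits that left out a library it passed in 1, that without KO 2. Eif4ebp3 overlapped between the groups, with 9.57 and 13.1 FPKM in the KO libraries and 8.50 and 10.2 FPKM in the WT libraries (adjusted p = 0.41, limma).

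As a sum, the 4 inhibitor genes made up 0.0187% and 0.021% of all FPKM in the KO libraries, against 0.00886% and 0.00882% in the WT libraries. The cap complex made up 0.193% and 0.212% in the KO libraries and 0.151% and 0.159% in the WT libraries. In both sums the KO libraries lay above the WT libraries, and an exact permutation test gave p = 0.333 for each, the smallest that 2 libraries against 2 allow. The total holds the ribosomal protein rows, whose share was lower in the KO libraries, and these sums were not repeated without them. For all members together the order of the groups turned without those rows, as given below.

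**Figure D2:**
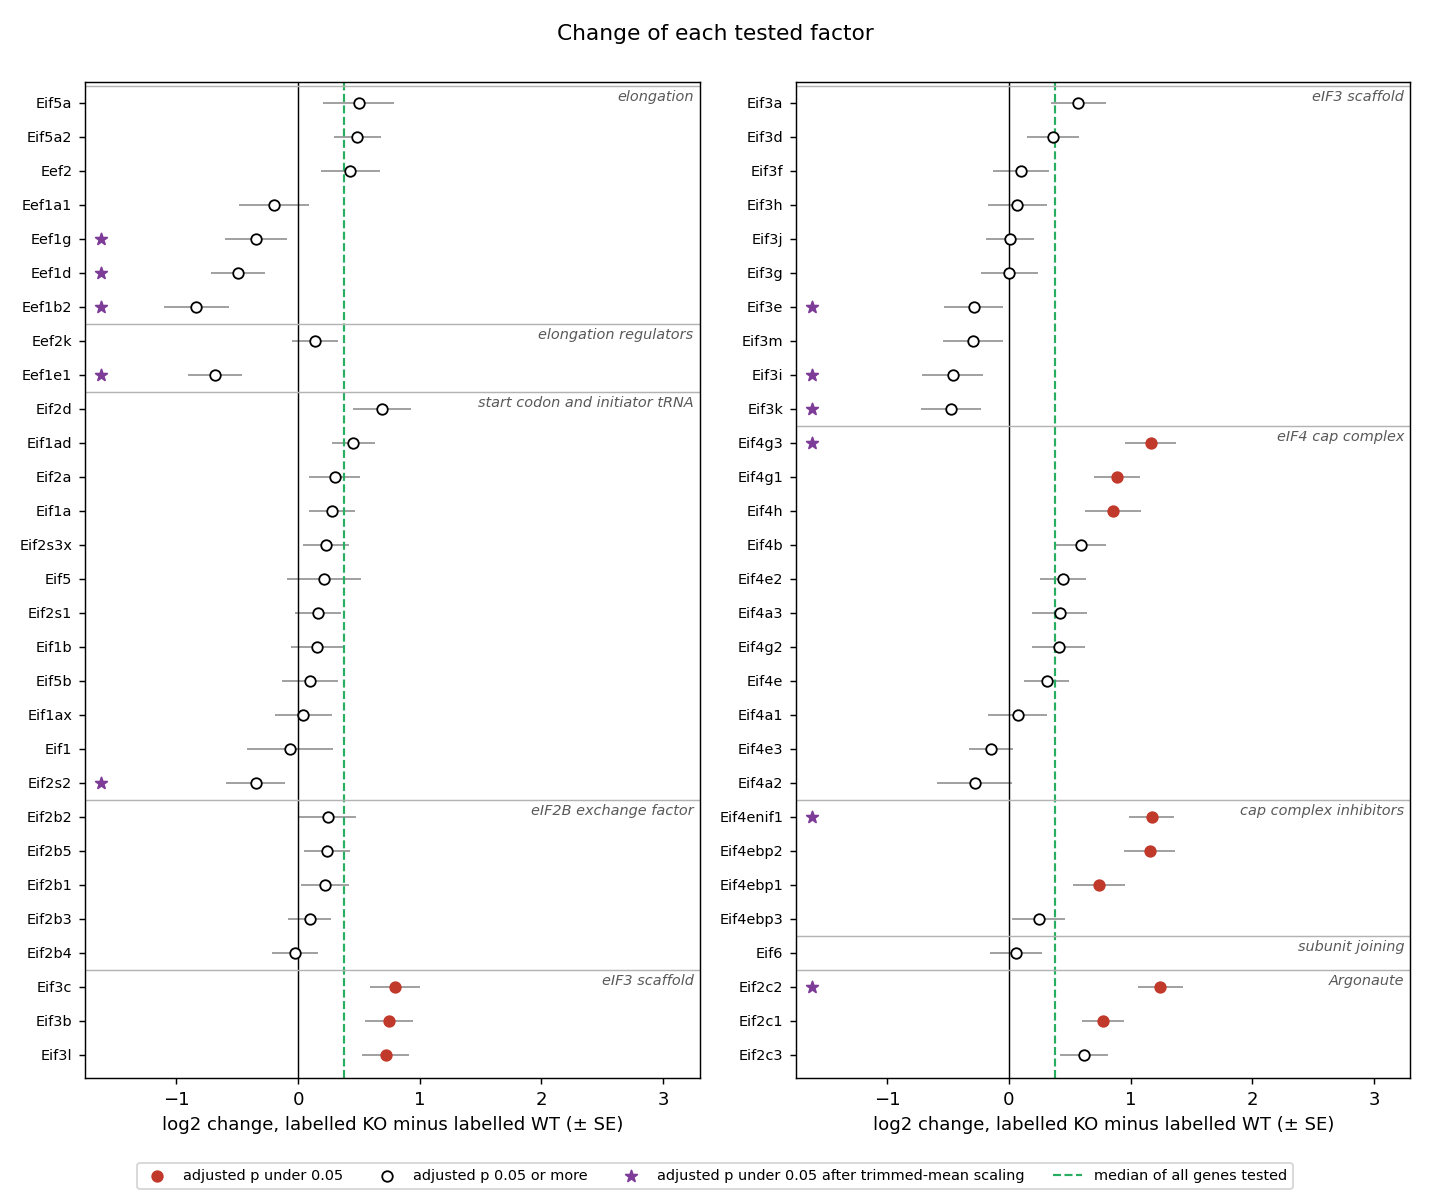
Log2 change (labelled KO minus labelled WT, log2(FPKM + 1) scale) of the 58 tested members with its standard error; filled red points passed limma's adjusted p of 0.05 as deposited, purple stars mark genes that passed after trimmed-mean scaling, and the dashed green line is the median gene at 0.38. Most elongation factors and the eIF3 genes k, i, m and e lie left of the line, and the cap complex inhibitors Eif4enif1, Eif4ebp2 and Eif4ebp1 lie right of it.

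The elongation factors lay on both sides of the median gene, 3 above it and 4 below. No elongation factor was called as deposited or after quantile normalization, and their median log2 change as deposited was -0.20. After trimmed-mean scaling 3 of 7 tested (42.9%, beside 3.75% of all genes) were lower, all subunits of the eEF1B exchange complex. Eef1b2, its catalytic alpha subunit, had 240 and 236 FPKM in the KO libraries, against 357 and 508 FPKM in the WT libraries. That was a ratio of 0.55 (log2 change -0.84 ± 0.27 SE, adjusted p = 0.0591, limma), and after trimmed-mean scaling the change was -1.29 (adjusted p = 0.0212). Eef1d had 62.1 and 56.2 FPKM in the KO libraries and 75.5 and 92.5 FPKM in the WT libraries (log2 change -0.49, adjusted p = 0.138, limma, and 0.0278 after trimmed-mean scaling). Eef1g had 271 and 251 FPKM in the KO libraries and 288 and 379 FPKM in the WT libraries (log2 change -0.34, adjusted p = 0.333, limma, and 0.0421 after trimmed-mean scaling). In all 3 genes both KO libraries lay below both WT libraries as deposited, as in 12.1% of all genes.

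Eef1a1, the factor that the exchange complex recharges, was the most abundant member by far. It had 3690.1 and 3556 FPKM in the KO libraries and 3736 and 4632 FPKM in the WT libraries, and did not pass the test as deposited (log2 change -0.20, adjusted p = 0.618, limma) or after trimmed-mean scaling (adjusted p = 0.0555). After quantile normalization its direction turned, with a log2 change of 0.63 (adjusted p = 0.0984, limma). Eef1a1 held 49.1% and 48.2% of the members' summed FPKM in the KO libraries and 53.3% and 51.8% in the WT libraries. Its relative of muscle and nerve, Eef1a2, was listed at 0 in every library. Eef2, the translocase, had 649 and 629 FPKM in the KO libraries and 463 and 485 FPKM in the WT libraries. The groups stood apart, yet its log2 change of 0.43 (adjusted p = 0.21, limma) was close to that of the median gene and was -0.02 after trimmed-mean scaling. Eif5a, which helps ribosomes over stalled stretches such as runs of proline, had 175 and 191 FPKM in the KO libraries and 101 and 164 FPKM in the WT libraries (adjusted p = 0.226, limma). Its scarce paralog Eif5a2 had 1.78 and 1.40 FPKM in the KO libraries and 0.875 and 0.81 FPKM in the WT libraries (adjusted p = 0.106, limma).

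Eef1e1 (also called AIMP3) is a member by its symbol and was grouped with the regulators of elongation, but it is a scaffold of the multi-synthetase complex. It had 9.49 and 7.21 FPKM in the KO libraries, against 12.1 and 16.0 FPKM in the WT libraries. Its log2 change was -0.68 ± 0.22 SE as deposited (adjusted p = 0.0619, limma) and -1.10 after trimmed-mean scaling (adjusted p = 0.0306). Quantile normalization left it as the single member called lower, with 0 higher, where 1.62% of all genes were higher and 0.695% lower. Eef2k, the kinase that switches eEF2 off, had 1.34 and 1.19 FPKM in the KO libraries and 0.992 and 1.13 FPKM in the WT libraries (adjusted p = 0.605, limma).

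Several factors belong to the 5′ terminal oligopyrimidine (TOP) mRNAs, whose translation depends on mTOR and LARP1 and which also include the ribosomal protein mRNAs. Of 9 members listed as TOP mRNAs from general knowledge, 0 were higher and 0 lower as deposited. After trimmed-mean scaling 4 were lower (Eef1b2, Eef1d, Eef1g and Eif3e), 44.4% beside 3.75% of all genes. Of genes at a mean of 50 FPKM or more outside the ribosomal proteins, the level of all 9, 13.5% were lower after that scaling. Quantile normalization left 0 of the 9 called either way, beside 1.62% of all genes higher and 0.695% lower. The median log2 change of the 9 as deposited was -0.20, against 0.25 for the 49 other tested members. Of 80 tested ribosomal protein genes 32 were lower and 0 higher as deposited (40% lower, against 1.0% of all genes), with a median log2 change of -0.87. Trimmed-mean scaling raised the count lower to 74, and quantile normalization brought it to 6.

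A pyrimidine tract, the mark of such mRNAs, was looked for at the annotated gene starts, as a C followed by at least 4 more pyrimidines that begins within 10 bases of the start. Tracts were found in 12 of the 47 members (25.5%), against 35.4% of tested genes and 32.6% of all promoters. Of the 9 TOP mRNA members 5 had an entry, and a tract by this rule lay at the annotated start of Eef1a1, Eif3f and Eif4b but not of Eef1b2 or Eef2. Where the mRNAs begin in these cells was not measured. A tract found or missing at an annotated start therefore does not show whether the mRNA itself begins with one. The tract can overlap an ETS-type match, as the 2 share the letters CTTCC. The 30 bases around the start are shown for 4 members with different changes, with the tract in capitals. They lie at chr9:78481710-78481739 on the minus strand for Eef1a1, at chr7:108934400-108934429 on the plus strand for Eif3f, at chrX:94212637-94212666 on the minus strand for Eif2s3x and at chr15:79075208-79075237 on the plus strand for Eif3l.
Eef1a1: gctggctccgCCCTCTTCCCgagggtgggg
Eif3f: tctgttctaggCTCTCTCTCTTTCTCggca
Eif2s3x: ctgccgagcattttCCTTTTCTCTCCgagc
Eif3l: gcgcggagttCTTCTTCCgctctctcccac
Of these 4, Eif3l was called higher as deposited, and Eef1a1, Eif3f and Eif2s3x passed in neither scaling.

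The 13 eIF3 subunits, which together form the largest initiation factor, differed among themselves. As deposited 3 were higher and 0 lower, a share of 23.1% near the 25.6% of all genes. With trimmed-mean scaling 0 were higher and 3 lower, 23.1% against 3.75% of all genes. Eif3c, a core subunit whose promoter holds the pair of ETS-type matches shown, had 59.6 and 51.5 FPKM in the KO libraries, against 30.6 and 32.4 FPKM in the WT libraries (1.76-fold, adjusted p = 0.0331, limma). Eif3b, the subunit on which the RNA-binding side of the complex is built, had 39.5 and 34.7 FPKM in the KO libraries and 21.5 and 21.9 FPKM in the WT libraries (1.71-fold, adjusted p = 0.0349, limma). Eif3l had 35.5 and 32.3 FPKM in the KO libraries and 19.9 and 20.5 FPKM in the WT libraries (1.68-fold, adjusted p = 0.036, limma). In these genes both KO libraries were well above both WT libraries, and none of the 3 passed after trimmed-mean scaling. Of the 4 fits that each left out a library, Eif3c passed in 1 (without WT 2), and Eif3b and Eif3l in 0 (lowest adjusted p = 0.053 and 0.0522, limma).

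The subunits on the other side were Eif3k, Eif3i and Eif3e. Eif3k, which binds Eif3l in the complex, had 113 and 101 FPKM in the KO libraries, against 130 and 172 FPKM in the WT libraries (log2 change -0.48, adjusted p = 0.178, limma, and 0.0328 after trimmed-mean scaling). Eif3i had 70.3 and 56.2 FPKM in the KO libraries and 74.7 and 101 FPKM in the WT libraries (log2 change -0.46, adjusted p = 0.201, limma, and 0.0406 after trimmed-mean scaling). Eif3e had 142 and 130 FPKM in the KO libraries and 146 and 190 FPKM in the WT libraries (log2 change -0.29, adjusted p = 0.388, limma, and 0.0453 after trimmed-mean scaling). Eif3m had 111 and 83.0 FPKM in the KO libraries and 111 and 127 FPKM in the WT libraries, with overlapping groups (adjusted p = 0.38, limma, and 0.0519 after trimmed-mean scaling). In Eif3k, Eif3i and Eif3e the groups did not overlap, with a small gap in Eif3e and Eif3i.

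The other subunits did not pass in either scaling. Eif3h, the most abundant by the mean over all libraries though below Eif3e in both WT libraries, overlapped between the groups. It had 179 and 152 FPKM in the KO libraries and 141 and 175 FPKM in the WT libraries. Eif3a, the largest subunit by protein size, had 68.6 and 61.9 FPKM in the KO libraries against 38.4 and 49.5 FPKM in the WT libraries (log2 change 0.57, adjusted p = 0.104, limma). Eif3d, which can bind the cap of some mRNAs, had 42.3 and 39.3 FPKM in the KO libraries and 28.3 and 35.1 FPKM in the WT libraries (adjusted p = 0.229, limma). Eif3j, a loosely bound subunit, was level at 22.6 and 22.3 FPKM in the KO libraries and 20.1 and 24.6 FPKM in the WT libraries (adjusted p = 0.978, limma).

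A comparison within each library does not change when a library is multiplied by a single factor, although quantile normalization and removal of the length trend can move it. For this reason each subunit was also set against the median eIF3 subunit of its own library. This comparison was added after the values were seen and has no test. Relative to that median, 5 subunits (a, b, c, d and l) were higher in both KO libraries than in both WT libraries, 4 (e, i, k and m) were lower in both, and 4 (f, g, h and j) overlapped. Eif3c differed by 0.77, Eif3b by 0.73 and Eif3l by 0.70 on the log2 scale, against -0.53 for Eif3k, -0.51 for Eif3i and -0.35 for Eif3m. The 5 higher subunits have longest coding transcripts of 1899 nt (Eif3d) to 5125 nt (Eif3a) and the 4 lower ones of 909 nt (Eif3k) to 1506 nt (Eif3e). Among the 4 that overlapped, Eif3j has 5413 nt and Eif3g 1101 nt.

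**Figure D3:**
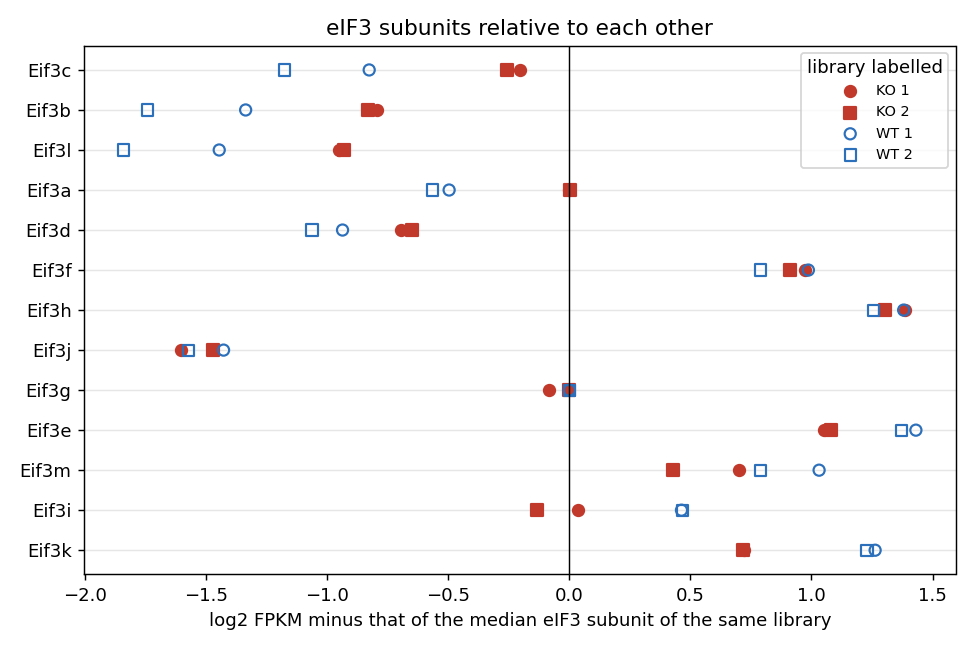
Log2 FPKM of each eIF3 subunit minus that of the median eIF3 subunit in the same library; filled red marks are the libraries labelled KO and open blue marks those labelled WT. The rows run from Eif3c, where the KO libraries lie 0.77 to the right on average, to Eif3k, where they lie 0.53 to the left.

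None of the 12 factors of start codon choice and initiator tRNA delivery passed the test as deposited, and Eif2s2 was lower after trimmed-mean scaling. Eif2s2, the beta subunit of eIF2, had 36.1 and 30.4 FPKM in the KO libraries and 35.7 and 50.4 FPKM in the WT libraries, with overlapping groups (log2 change -0.35, adjusted p = 0.306, limma, and 0.0493 after trimmed-mean scaling). Eif2d, which can deliver initiator tRNA in place of eIF2 and recycles ribosomes, had 9.65 and 7.36 FPKM in the KO libraries against 3.86 and 6.04 FPKM in the WT libraries (log2 change 0.69, adjusted p = 0.0736, limma). Eif1, the most abundant of the group, varied as much within as between groups, with 274 and 388 FPKM in the KO libraries and 253 and 460 FPKM in the WT libraries. Eif1ad, an eIF1A-like protein, had 10.2 and 8.70 FPKM in the KO libraries and 6.70 and 6.51 FPKM in the WT libraries, with groups apart (log2 change 0.45, adjusted p = 0.1, limma). Eif5, the GTPase activator of eIF2, overlapped, with 56.4 and 77.5 FPKM in the KO libraries and 44.4 and 72.5 FPKM in the WT libraries. Eif5b, the GTPase that joins the ribosomal subunits, also overlapped, with 17.0 and 16.0 FPKM in the KO libraries and 12.6 and 18.7 FPKM in the WT libraries. The X-linked and autosomal copies of eIF1A, Eif1ax and Eif1a, differed in level. Eif1ax had 45 and 39.8 FPKM in the KO libraries and 35 and 48.1 FPKM in the WT libraries, and Eif1a had 8.95 and 9.83 against 6.75 and 8.43 FPKM. Eif2s1, the alpha subunit of eIF2 that stress kinases phosphorylate, had 16.0 and 13.5 FPKM in the KO libraries and 12.8 and 13.1 FPKM in the WT libraries (adjusted p = 0.52, limma). Eif2s3x, the X-linked gamma subunit of eIF2, had 27.6 and 27.2 FPKM in the KO libraries and 23.1 and 23.4 FPKM in the WT libraries (log2 change 0.23, adjusted p = 0.375, limma). Its Y-linked copy, left out of the members, had 39.3 and 26.4 FPKM in the KO libraries and 26 and 35.3 FPKM in the WT libraries, and Xist was at most 0.282 FPKM in any library. Of the other Y-linked genes, both KO libraries lay above both WT libraries in Kdm5d (6.15 and 5.64 against 3.95 and 3.24 FPKM, adjusted p = 0.0511, limma) and Ddx3y, while Uty overlapped.

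The 5 subunits of eIF2B, the exchange factor of eIF2, differed little between the groups. Their log2 changes ran from -0.02 (Eif2b4) to 0.24 (Eif2b2), all below the median gene, and 0 passed in either scaling. Eif2b2 had 13.6 and 19.2 FPKM in the KO libraries and 12.1 and 15.1 FPKM in the WT libraries, so the groups overlapped. Eif2b5, the catalytic subunit, had 12.4 and 10.1 FPKM in the KO libraries and 8.89 and 9.85 FPKM in the WT libraries (adjusted p = 0.368, limma). Eif2b1, a regulatory subunit, overlapped, with 5.97 and 6.90 FPKM in the KO libraries and 4.64 and 6.19 FPKM in the WT libraries. Eif6, which keeps the large ribosomal subunit from joining too early, had 27.9 and 23.7 FPKM in the KO libraries and 22.2 and 27.5 FPKM in the WT libraries (adjusted p = 0.859, limma).

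The Argonautes silence mRNAs as the protein part of the small RNA complex, and 2 of 3 tested were higher as deposited. Of all genes 25.6% were, and 42.1% of genes of 4000 nt and over, the length band of all 3. Eif2c2 (Ago2, the one that can cut its target) had 7.18 and 9.06 FPKM in the KO libraries, against 2.74 and 2.92 FPKM in the WT libraries. It was 2.87-fold higher (log2 change 1.24 ± 0.18 SE, adjusted p = 0.0131, limma) and passed after trimmed-mean scaling (log2 change 0.87, adjusted p = 0.0469). Eif2c1 (Ago1) had 6.01 and 6.61 FPKM in the KO libraries and 3.07 and 3.5 FPKM in the WT libraries (1.92-fold, adjusted p = 0.0238, limma, and 0.14 after trimmed-mean scaling). Eif2c3 (Ago3) had 1.28 and 1.22 FPKM in the KO libraries and 0.454 and 0.48 FPKM in the WT libraries, and missed the threshold (adjusted p = 0.0566, limma). Eif2c4 (Ago4) stayed under 1 FPKM and was not tested. With the length trend removed, the log2 change was 0.56 for Eif2c2 (adjusted p = 0.0894, limma) and 0.16 for Eif2c1 (adjusted p = 0.528, limma). For Eif2c3 it was -0.08 (adjusted p = 0.824, limma). Without the Argonautes, 9 of 55 members were higher as deposited, and 2 higher and 8 lower after trimmed-mean scaling.

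Ratios between related genes within a library likewise hold under any single factor per library, though not under quantile normalization or removal of the length trend. Of 8 pairs, the ratio was higher in both KO libraries in 2, lower in both in 3 and overlapping in 3, and no exact permutation p was under 0.333, the smallest possible. The ratio of Eif2c1 to Eif2c2 was 0.838 and 0.73 in the KO libraries, against 1.12 and 1.2 in the WT libraries, so Ago2 stood above Ago1 in the libraries labelled KO and below it in those labelled WT. Eif4g1 stood at 1.89 and 1.83 times Eif4g3 in the KO libraries and at 2.69 and 2.05 times in the WT libraries. Eif4a1 stood at 1.07 and 0.816 times Eif4a2 in the KO libraries, against 0.798 and 0.673 times in the WT libraries. The ratio of Eif4e to Eif4e2 was tight, with 0.731 and 0.72 in the KO libraries and 0.79 and 0.80 in the WT libraries. The ratio of Eif1a to Eif1ax was 0.199 and 0.247 in the KO libraries and 0.193 and 0.175 in the WT libraries. The pairs Eif4ebp1 with Eif4ebp2, Eif1 with Eif1b, and Eif5a with Eif5a2 overlapped.

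**Figure D4:**
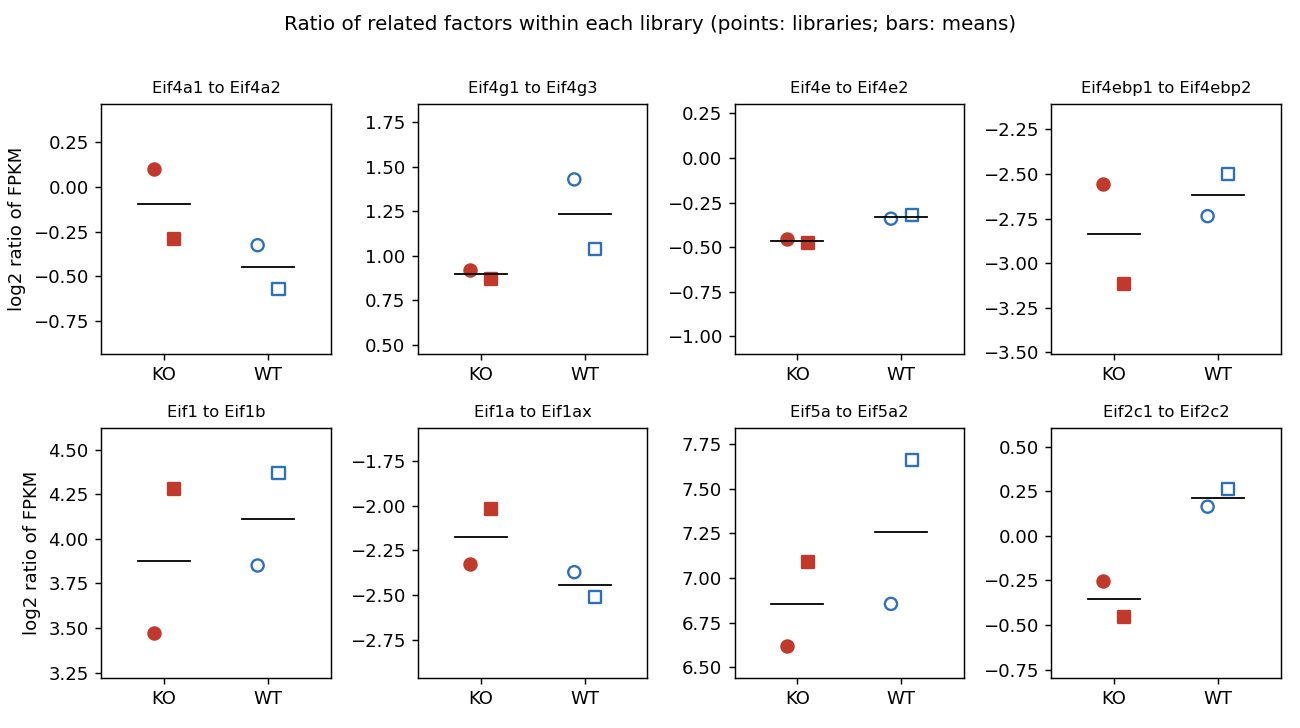
Log2 ratio of FPKM of 8 pairs of related factors in each library, with the libraries labelled KO (filled red) left of those labelled WT (open blue) and bars at the group means; all panels span the same range of 1.4 on the log2 scale. The groups are furthest apart for Eif2c1 to Eif2c2, where the mean log2 ratio was -0.35 in the KO libraries and 0.21 in the WT libraries.

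Across the 58 members, the log2 change went with transcript length (Spearman rho 0.50, or 0.44 over the 55 members without the Argonautes), as it did over 10873 genes with a known length (rho 0.33). These are correlations across genes of the same 4 libraries, which share their scaling, and genes are no replicates. Of the members under 2000 nt, 2 of 20 were higher as deposited, where 11.7% of all genes of that length were. Of those of 4000 nt and over, 5 of 15 were higher, where 42.1% of all such genes were. Within the WT group, too, the difference WT 1 minus WT 2 of the members went with length (rho 0.34), against -0.15 for KO 1 minus KO 2. With the length trend removed from each library, 0 members were higher and 3 were lower (Eef1b2, Eef1d and Eef1e1), beside 1.94% and 0.912% of all genes; at an unadjusted p under 0.05 limma gave 7 higher and 16 lower (12.1% and 27.6%, beside 15.6% and 14.5% of all genes). The change also went with level, with a rho of -0.42 over the members against -0.08 over all genes. Of 20 members at a mean of 50 FPKM or more, 0 were higher as deposited, where 12.4% of the genes at that level outside the ribosomal proteins were, and 6 were lower after trimmed-mean scaling, where 13.5% of those genes were.

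**Figure D5:**
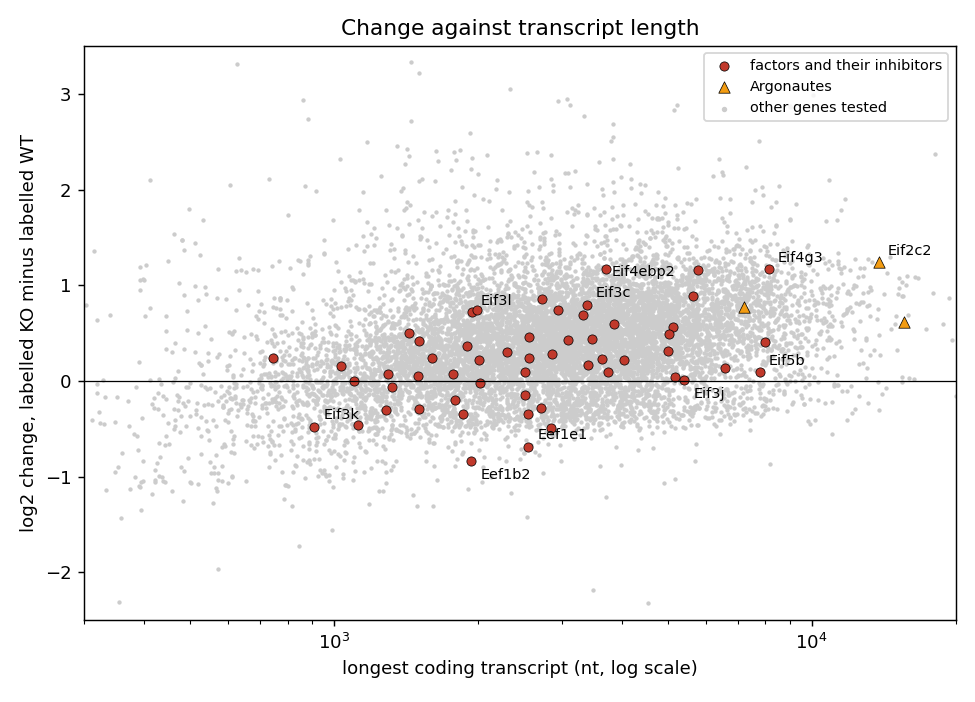
Log2 change (labelled KO minus labelled WT) against the length of the longest coding transcript in nt (log axis) for the 58 tested members in colour and the other genes in grey; 121 of 10873 genes, none of them a member, lie outside the axes. The coloured points tend to climb with length along with the grey cloud, with Eif3k (909 nt) low and Eif4g3 and the Argonaute Eif2c2 high. The shortest member, Eif4ebp3 (744 nt, log2 change 0.24), and the longest, Eif2c3 (15595 nt, 0.62), lie between these in change.

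The members' share of all FPKM was nearly level, with 2.26% and 2.27% in the KO libraries against 2.13% and 2.18% in the WT libraries. The groups did not overlap, and the exact permutation p of 0.333 is the smallest possible. With the ribosomal protein rows taken out of the total, the order turned, with 2.91% and 2.94% in the KO libraries and 3.37% and 3.57% in the WT libraries. Of all FPKM with those rows kept, the elongation factors alone held 1.53% and 1.51% in the KO libraries and 1.53% and 1.53% in the WT libraries.

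Of 40 other tested genes of the translation machinery (release and recycling factors, mitochondrial factors, poly(A)-binding proteins, and kinases and helicases of the pathway), 9 were higher and 0 lower as deposited (22.5%, close to the 25.6% of all genes), and 0 were called either way after trimmed-mean scaling. Mknk2, a kinase that phosphorylates eIF4E, had 59.8 and 67.1 FPKM in the KO libraries, against 24.7 and 33.5 FPKM in the WT libraries (log2 change 1.11, adjusted p = 0.0208, limma). Rps6kb2, an S6 kinase downstream of mTOR, had 9.29 and 9.89 FPKM in the KO libraries and 4.48 and 4.76 FPKM in the WT libraries (adjusted p = 0.0171, limma). Gfm2, a mitochondrial ribosome recycling factor, had 6.22 and 5.98 FPKM in the KO libraries and 2.77 and 3.02 FPKM in the WT libraries (adjusted p = 0.0179, limma). Dhx29, a helicase for structured leaders, had 4.24 and 4.41 FPKM in the KO libraries and 1.83 and 2.13 FPKM in the WT libraries (adjusted p = 0.0205, limma). In these 4 genes the groups stood well apart. Of the 20 cytosolic aminoacyl-tRNA synthetases, which charge the tRNAs, 5 were higher and 0 lower as deposited (25%, close to the 25.6% of all genes), and 0 either way after trimmed-mean scaling.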

How the data were processed

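NEBNext Ultra libraries were made from 200 ng of Direct-zol RNA and sequenced on a HiSeq1500, per the labels' protocols. The submitters' processing notes name Bowtie 0.12.2 and mm8, but neither a quantification program nor its annotation, which are not given in the sources used. The authors deposited 1 FPKM value per gene symbol and library, per the file headers. FPKM divides fragments by gene length and by the mapped total, so abundant genes that change can shift others.

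Rows at 1 FPKM or more in 2 or more of the 4 libraries were tested with limma 3.58.1 (R 4.3.3, intensity trend) on log2(FPKM + 1), two-sided, with Benjamini-Hochberg adjustment over 11074 rows and a threshold of 0.05. The pseudocount of 1 understates differences of scarce genes. Folds divide mean FPKM. Trimmed-mean scaling dropped 30% of log ratios and 5% of levels at each side. Single values were compared with exact permutation tests. Depth was estimated from the steps of low values with an assumed fragment length of 200 nt; between 49.5% and 58.1% of low values lay within 0.05 of a whole fragment, so no count test was run. At these estimates a tested member rested on 74.0 (Eif4ebp1) to 183244 (Eef1a1) fragments in a library, and precision is lowest for the scarce ones. Lengths are of the longest coding transcript (GRCm38 annotation), and promoters come from RefSeq (GRCm38.p6). The procedure was also run on simulated data, in which changes went both ways and no library had a shift or length trend of its own. That run does not cover the shift of the median gene or the length trend seen here. Other tools were Python 3.11.15, numpy 2.4.6, pandas 2.3.3 and matplotlib 3.10.9.

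The members, the lists and the tests were chosen with earlier results of these data known. Full values were given for, in each role, the 2 members of smallest p and the most abundant one, for both genes of each related pair, for every member called after trimmed-mean scaling, and for up to 4 other translation genes; others named were chosen after their values were seen. Alternatives were each library left out, a replicate block, pseudocounts of 0.1 and 5, other filters, scalings and variance models; the common summed FPKM, the length trend, leaving out small RNA rows and the comparison within eIF3 were added after seeing the data. A gene is not reported here.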

Additional observations from a re-analysis of the deposited data

How the results depend on the processing

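Without a filter on low values limma called 0 members higher (3 of all genes higher and 0 lower, and 0 other translation genes higher), with 17 members higher and 3 lower at an unadjusted p under 0.05 (28.3% and 5%, beside 22.9% and 2.69% of all genes); more rows were then tested. Members called higher numbered 3 after trimmed-mean scaling, 0 after quantile normalization, 22 after scaling to a common summed FPKM and 0 with the length trend removed, and members called lower 8, 1, 1 and 3 in that order. At an unadjusted p under 0.05, limma after quantile normalization gave 11 members higher and 12 lower (19.0% and 20.7%, beside 16.2% and 17.6% of all genes). Over all genes the calls higher were 501, 179, 4719 and 215 in the same order, and 415 were lower after trimmed-mean scaling. Of the other translation genes 0, 0, 18 and 0 were higher. With no variance trend 1 member was lower (Eef1b2), and without small RNA rows 2 were (Eef1b2 and Eef1e1). Leaving out each library gave 0 to 9 members higher and 0 lower, 9 to 2189 genes higher and 0 to 123 lower, and 0 to 10 other translation genes higher. The members' median log2 change minus that of all genes was -0.15, but -0.20 with a pseudocount of 0.1, -0.040 with a pseudocount of 5 and 0.12 with no filter, and -0.19 to -0.11 over the libraries left out. The members' share turned to -0.548 percentage points (KO minus WT) without ribosomal protein rows. The log2 ratio of Eif4ebp1 to Eif4ebp2 ran from -0.50 to 0.062 over the libraries left out (above 0 without KO 2), that of Eif1 to Eif1b from -0.63 to 0.17 (above 0 without KO 1 and, at 0.028, without WT 2), and that of Eif5a to Eif5a2 turned to 0.012 with 1 FPKM added. The cause of these moves was not tested.

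The groups share replicate numbers that are only names: the deviations of same-numbered libraries had a correlation of 0.108, from a design that gives a single independent value. With the number as a block 13 members were higher and 1 lower (22.4% and 1.72%), and of all genes 3909 were higher and 230 lower (35.3% and 2.08%).

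The 4 members Eif2c2, Eif4ebp2, Eif4enif1 and Eif4g3 were called in 3 of the 4 fits that left out a library, the exception being the fit without WT 1. Of the other called members, Eif2c1 was called in 2, Eif3c, Eif4ebp1, Eif4g1 and Eif4h in 1 each, and Eif3b and Eif3l in 0. Eif4e1b, Eif2c4 and Eef1a2 fell under the filter of 1 FPKM and were not tested in the reported fit. Eif4e1b rested on an estimated 2.75 to 8.14 fragments a library.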
